A study of Mus musculus with 18 samples.

Results

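Gata3 is a gene for a zinc-finger transcription factor, described here in mouse naive CD4 T cells cultured for 3 hours with IL-27, with IL-6 or with no cytokine. Gata3 is 1 of the 18193 genes with a single-symbol probe set on the array. The rule took every probe set that carried the symbol Gata3 and no other: there was 1, of 34945 probe sets with a single gene symbol, and it was annotated to NM_008091. It lay above the median signal of its own array on all 18 arrays and was among the 11971 genes tested.

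The cells were CD4+ T cells of the C57BL/6J strain from spleen and lymph nodes, sorted as CD44-, CD62L+ and CD25-. The 6 groups were STAT3-deficient cells with IL-27 at 20 ng/ml, STAT3-deficient cells with IL-6 at 20 ng/ml, STAT3-deficient cells in medium, WT cells with IL-27 at 20 ng/ml, WT cells with IL-6 at 20 ng/ml and WT cells in medium. Each group had 3 arrays, stated by the submitters to be biological replicates. The STAT3-deficient genotype was given as Cd4-Cre with the allele STAT3 tm1Dlv on C57BL6. Cd4-Cre is a recombinase under Cd4 regulatory sequences, which deletes in developing T cells and leaves non-T cells of the mouse with the gene. The WT genotype was given with no Cre. The age and sex of the animals, and whether cells of several animals were pooled, were not given in the sources used here.

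GATA3 is needed for T cells to form in the thymus, for commitment to the CD4 lineage and for the survival of mature T cells. Naive CD4 T cells hold a moderate amount of it. When IL-4 acts through STAT6, GATA3 rises, binds its own gene and the Th2 cytokine locus, and drives Th2 differentiation. IL-6 signals mainly through STAT3, and IL-27 also activates STAT3. IL-27 has been reported to lower GATA3 and to restrain Th2 differentiation in mouse T cells.

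Gata3 lies on the minus strand of mouse chromosome 2, at chr2:9857078-9887953 in GRCm38.p6, where RefSeq annotates it as protein-coding. The 250 bases upstream of the RefSeq start in the promoter table, at chr2:9878601-9878850 on the minus strand, are shown because the signal of this gene moved with a cytokine that acts through a DNA-binding factor. On the minus strand the annotated span begins at 9887953, so this window lies within the span. The sequence upstream of 9887953 was not examined. Capitals mark GGGCGG, the core of the GC box bound by Sp family factors, searched on both strands.
Gata3 promoter: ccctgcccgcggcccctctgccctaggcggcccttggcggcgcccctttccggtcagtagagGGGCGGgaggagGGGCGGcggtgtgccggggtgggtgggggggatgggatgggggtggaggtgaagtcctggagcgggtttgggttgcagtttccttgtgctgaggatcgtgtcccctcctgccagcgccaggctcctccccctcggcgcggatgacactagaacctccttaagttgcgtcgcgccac
This window held 2 matches to GGGCGG, and 32.7% of 32851 promoter windows of the same length held at least 1. Its GC content was 70%, against a median of 52.4% over those windows. It held 0 matches to TTCNNNGAA, the palindrome that STAT factors bind, which 7.02% of windows held. It also held 0 matches to TTCNNNNGAA, the wider spacing preferred by STAT6, which 5.85% of windows held. The GATA motifs AGATAA and TGATAA were absent from the window as well, and 9.99% and 7.94% of windows held them. The E-box CANNTG, held by 66.2% of windows, had 0 matches. All motifs were read on both strands, overlaps were allowed, and a motif that was not found says nothing of binding outside these letters.

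The array medians of the deposited signal ran from 131.5 to 190.3 on the STAT3-deficient arrays and from 104.4 to 126.8 on the WT arrays, all at a trimmed mean of 500. Arrays of the genotypes separated along the leading principal component, with 33.1% of the variance. The normalised signal of Stat3 itself was 1136, 1283 and 1126 on the STAT3-deficient medium arrays, against 2940.4, 2563 and 2293 on the WT medium arrays, a log2 change of -1.11 ± 0.12 (SE, adjusted p = 1.73e-05). That call was lost when all Stat3 probe sets were averaged (log2 change -0.28, adjusted p = 0.0803), and the position of each probe set relative to the deleted part was not analysed here. Within STAT3-deficient cells Stat3 signal read 4464, 4608 and 3339.7 with IL-27 and 2525, 2208 and 2477 with IL-6, higher than in medium by 1.77 ± 0.12 (adjusted p = 4.66e-09) and 1.00 ± 0.12 (adjusted p = 2.08e-05). Sums of myeloid and B cell marker signal were higher on the STAT3-deficient arrays, as given with the genotype comparisons.

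The normalised signal of Gata3, the quantile-normalised value in array units, was 702, 650.4 and 835 on the 3 STAT3-deficient arrays with IL-27. It was 807, 517 and 741 on the STAT3-deficient arrays with IL-6 and 409, 452 and 749 on those in medium. In WT cells it was 511, 596 and 577 with IL-27, 379.5, 389 and 357 with IL-6 and 716, 810.0 and 862 in medium. The 3 WT arrays with IL-6 were the lowest of all 18, and the WT groups did not overlap one another. The STAT3-deficient groups overlapped, and in medium 1 array of 3 stood well above the other two.

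**Figure D1:**
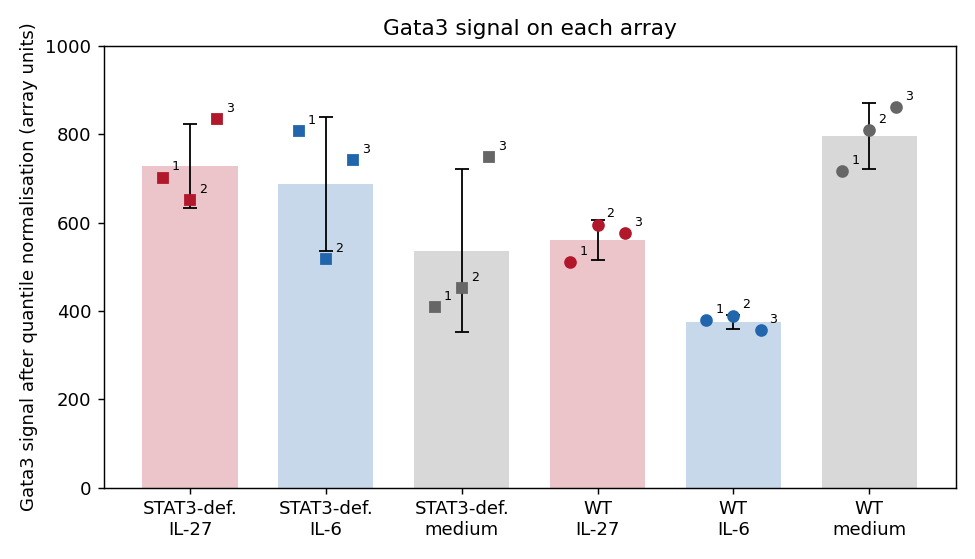
Gata3 signal after quantile normalisation (vertical axis, array units) on each of the 18 arrays, with the group on the horizontal axis. Points are arrays labelled by replicate number, bars are group means and error bars are 1 SD (n = 3). WT arrays with IL-6 lie at 357 to 389, below every other array.

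Mean log2 signals were 9.56 ± 0.18 in STAT3-deficient cells with IL-27, 9.47 ± 0.32 with IL-6 and 9.10 ± 0.44 in medium. They were 9.21 ± 0.11 in WT cells with IL-27, 8.67 ± 0.06 with IL-6 and 9.69 ± 0.13 in medium (SD, n = 3 each). From the lowest to the highest, the order was WT with IL-6, STAT3-deficient in medium, WT with IL-27, STAT3-deficient with IL-6, STAT3-deficient with IL-27 and WT in medium. No neighbouring pair in this order passed the test: the limma adjusted p-values, upward along the order, were 0.0903, 0.719, 0.372, 1 and 0.668. The spread within each STAT3-deficient group was wider than within any WT group.

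Gata3 fell with IL-6 in WT cells. The mean log2 signal was 8.67 with IL-6, against 9.69 in medium, a log2 change of -1.02 ± 0.19 (SE; 95% interval -1.42 to -0.62; adjusted p = 0.00113), or 2.03-fold lower. A change was called at a Benjamini-Hochberg adjusted p under 0.05 over the 11971 genes, and 8.32% of them were called in this comparison, 3.67% higher and 4.65% lower. Ordered by change, Gata3 ranked at position 130 from the lowest. The groups did not overlap, as held for 15% of genes that were lower with IL-6. In RNA of whole cell populations, fewer cells holding a transcript and less of it per cell cannot be told apart.

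With IL-27, WT cells had a mean log2 Gata3 signal of 9.21, against 9.69 in medium. The log2 change of -0.48 ± 0.19 did not pass the test (adjusted p = 0.209, 4.71% of genes called, 2% lower), although all 3 arrays with IL-27 lay below all 3 in medium, as did 13.4% of genes. Its 95% interval ran from -0.88 to -0.08. Both cytokine comparisons share the WT medium arrays. Set against IL-6 directly, IL-27 left Gata3 at a mean log2 signal of 9.21, against 8.67 with IL-6. That difference of 0.54 ± 0.19 did not pass the test either (adjusted p = 0.185, 3.14% of genes called), and the groups did not overlap, as for 9.28% of genes that were higher with IL-27. It passed with array weights (0.56, adjusted p = 0.0472) and when only the arrays compared were fitted (0.54, adjusted p = 0.0428).

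In STAT3-deficient cells neither cytokine gave a called change of Gata3. With IL-6 the mean log2 signal was 9.47, against 9.10 in medium, a change of 0.36 ± 0.19 with a 95% interval of -0.03 to 0.76 (adjusted p = 0.667, 1.85% of genes called). With IL-27 it was 9.56, against 9.10 in medium, a change of 0.46 ± 0.19 with an interval of 0.06 to 0.86 (adjusted p = 0.224, 4.98% of genes called). Both groups overlapped the medium arrays. Without the medium array numbered 3, which had the highest Gata3 signal of its group, the change with IL-27 was 0.72 and passed (adjusted p = 0.0184). The difference between IL-27 and IL-6 was 0.10 ± 0.19 (adjusted p = 1, 0.393% of genes called), and its sign turned without the IL-6 array numbered 2 (-0.09).

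The change with IL-6 differed between the genotypes. It was 0.36 in STAT3-deficient cells and -1.02 in WT cells, a difference of 1.39 ± 0.27 on the log2 scale (95% interval 0.82 to 1.95, adjusted p = 0.00472). Among all genes, 3.08% were called in this test, 1.83% with a positive difference, and by p-value Gata3 ranked at position 154 of 11971. It was called under every alternative run, with values from 1.24 to 1.65. For IL-27 the same difference was 0.94 ± 0.27, 0.46 in STAT3-deficient cells and -0.48 in WT cells (95% interval 0.38 to 1.50). It missed the threshold over all genes (adjusted p = 0.522, unadjusted p = 0.00243), in a comparison in which 2 genes (0.0167%) were called.

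**Figure D2:**
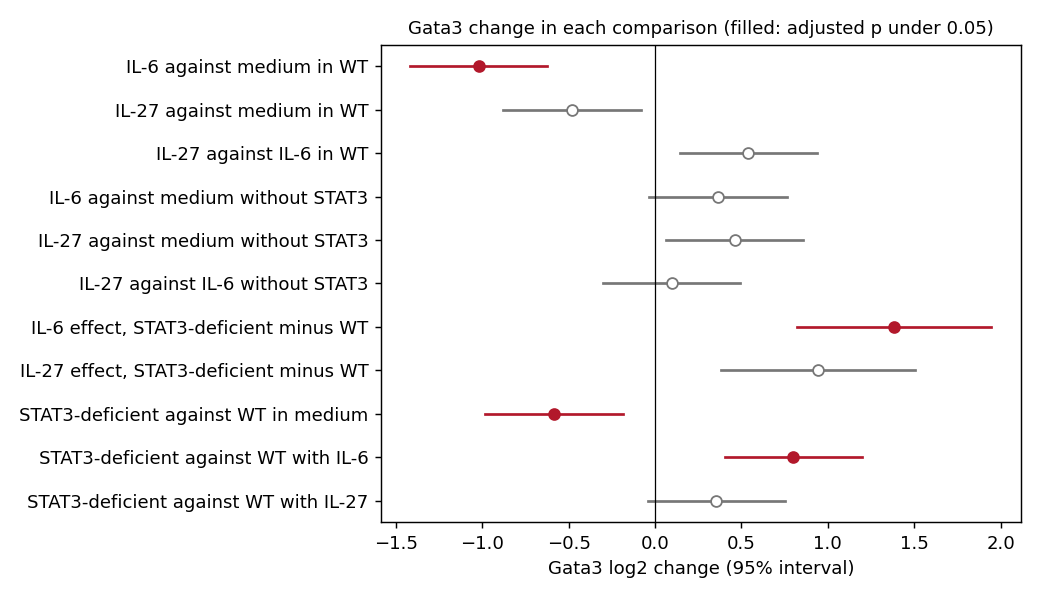
Log2 change of Gata3 (horizontal axis) in each of the 11 comparisons (vertical axis). Points are limma estimates with 95% intervals, filled where the adjusted p was under 0.05. The change with IL-6 in WT cells lies at -1.02, and the difference of the IL-6 effect, STAT3-deficient minus WT, at 1.39.

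Set against WT cells under the same condition, STAT3-deficient cells had less Gata3 in medium and more with IL-6. In medium the mean log2 signal was 9.10 in STAT3-deficient cells and 9.69 in WT cells, a change of -0.59 ± 0.19 (adjusted p = 0.0298, 26.6% of genes called), while the groups overlapped. The call was lost when any of 4 arrays was left out: STAT3-deficient medium 1 (-0.43, adjusted p = 0.145), STAT3-deficient medium 2 (-0.50, adjusted p = 0.112), WT medium 2 (-0.57, adjusted p = 0.0788) or WT medium 3 (-0.53, adjusted p = 0.0839). With IL-6 the mean was 9.47 in STAT3-deficient cells and 8.67 in WT cells, a change of 0.80 ± 0.19 (adjusted p = 0.00484, 23.6% of genes called). Here the groups did not overlap, as for 20.6% of genes that were higher in STAT3-deficient cells. With IL-27 the change of 0.36 ± 0.19 was not called (adjusted p = 0.212, 16.2% of genes called), with no overlap, as for 18.7% of genes.

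Markers of other cells differed between the genotypes and between STAT3-deficient arrays. The summed signal of 12 myeloid markers was 3229 to 8046 on STAT3-deficient arrays and 907 to 1473 on WT arrays. The sum of 10 B cell markers was 1839 to 2993 on STAT3-deficient arrays and 888 to 1265 on WT arrays. In medium, 6 of 7 B cell markers tested were higher in STAT3-deficient cells, and of 10 myeloid markers tested 5 were higher and 2 lower, where 13.8% of all genes were called higher and 12.9% lower. The B cell factor Pax5 and the myeloid surface proteins Cd14 and Itgam lay above the array median on 0 arrays. Of the markers tested, Ms4a1, Bank1 and Csf1r did so on up to 18 arrays. Lyz2, Fcer1g, S100a8 and S100a9 did so on 9, Cd79a and Cd68 on 7, Cd79b and Itgax on 6 and Tyrobp on 3. The filter needed 3 arrays, so a marker could be tested through the arrays of 1 genotype alone. The marker counts are therefore a description, and the shares of all genes are not a matched background for them. In each STAT3-deficient group the myeloid sum was highest on the array numbered 2 and lowest on that numbered 3. In medium, Gata3 read 749 at a myeloid sum of 3229, 409 at 5747 and 452 at 8046. With IL-6 it read 741 at 3300, 807 at 6006 and 517 at 7684. With IL-27 it read 835 at 3357, 702 at 5331 and 650 at 7272.

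Within WT cells the summed signals also differed by cytokine. The myeloid sum was 1186 to 1332 with IL-27, 907 to 1074 with IL-6 and 1168 to 1473 in medium, and the B cell sum was 1123 to 1265 with IL-27, 963 to 1056 with IL-6 and 888 to 985 in medium. Of the 10 myeloid markers tested, 1 was lower with IL-6 in WT cells, where 4.65% of all genes were. None was called in the other 3 cytokine comparisons against medium. Of all genes, 4.71% were called with IL-27 in WT cells. In STAT3-deficient cells 1.85% were called with IL-6 and 4.98% with IL-27. Of the 7 B cell markers, 1 was higher with IL-27 in STAT3-deficient cells, where 3.27% of all genes were. Without the STAT3-deficient arrays numbered 3, a setting chosen after seeing the data, the fall with IL-6 in WT cells, the difference of the IL-6 effect and the excess over WT cells with IL-6 were all called. With the mean B cell and myeloid marker signal as a covariate, also chosen after seeing the data, the STAT3-deficient against WT value in medium turned to 0.62 ± 0.48 (adjusted p = 0.497). With IL-27 the same covariate gave 1.46 (adjusted p = 0.0982), and median centring gave 0.11 (adjusted p = 0.751). Both marker sums separated the genotypes without overlap, so for genotype comparisons this covariate cannot tell the markers apart from the genotype. The part of the markers in the Gata3 values was not tested. Sums of the naive CD4 T cell markers also moved: they were 87358 to 93556 with IL-6 and 93849 to 104959 in medium in STAT3-deficient cells, and 58431 to 61164 with IL-6 and 92290.5 to 94507 in medium in WT cells.

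**Figure D3:**
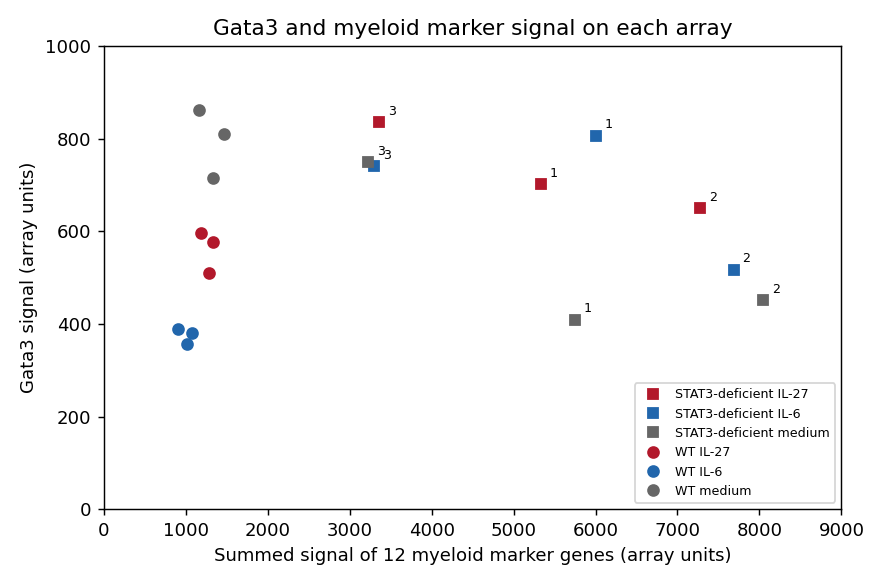
Gata3 signal (vertical axis, array units) against the summed signal of 12 myeloid marker genes (horizontal axis, array units) on each of the 18 arrays. Squares are STAT3-deficient arrays labelled by replicate number, and circles are WT arrays. The WT arrays lie between 907 and 1473 in myeloid signal at every level of Gata3.

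Cells with other GATA factors were looked for in the same way. Of the markers of group 2 innate lymphoid cells, mast cells and basophils, 4 were tested and none was called with either cytokine in either genotype. Between 1.85% and 8.32% of all genes were called in these comparisons, so 4 genes are too few to read a result from. The basophil protease Mcpt8, Arg1 and Il9r lay above the array median on 0 arrays. Of the 4 tested, Klrg1 and Rora did so on up to 18 arrays, Kit on up to 10 and Cpa3 on 7. The sum over 9 of these markers was 1311 to 1766 on STAT3-deficient arrays and 1115 to 1396 on WT arrays. Foxp3, the factor of regulatory T cells, which hold more GATA3 than naive cells, lay above the array median on 1 array. Among the other markers listed with Foxp3, Ctla4, Ikzf2 and Cd44 did so on up to 18 arrays, Il2ra on up to 9 and Zbtb16 on up to 4. The sum of 6 markers of regulatory, memory and NKT cells was 1863 to 3385 on STAT3-deficient arrays and 2279.7 to 2715 on WT arrays. The sum of 8 markers of CD8 T and NK cells in STAT3-deficient cells was 2094 to 2494 with IL-27, 2332 to 2547 with IL-6 and 2331 to 2679 in medium. In WT cells it was 2322 to 2751 with IL-27, 2136 to 2205 with IL-6 and 3033 to 3584 in medium, and these ranges did not overlap. With IL-6 the NK receptor gene Klrd1 had a log2 change of -0.35 ± 0.16 in STAT3-deficient cells (adjusted p = 0.555) and of -1.54 ± 0.16 in WT cells (adjusted p = 1.23e-06). The other tested markers of this list were not called with IL-6 in either genotype. In WT cells their changes were 0.07 for Cd8a, 0.03 for Cd8b1, -0.08 for Klrk1 and 0.02 for Prf1. The part of these markers in the Gata3 values was not tested.

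Among the other GATA factors and their FOG cofactors, 5 of 8 were tested. With IL-6 in WT cells, none of the 5 was called lower and 1, Gata1, was called higher. Of all genes, 4.65% were called lower and 3.67% higher, so 5 genes are too few to set Gata3 apart in this family. Gata4 and Gata5, factors of heart and gut, and the cofactor gene Zfpm2 lay above the array median on 0 arrays. Gata1, the erythroid and megakaryocyte factor, had signals in WT cells of 537, 485 and 511 with IL-27, 337, 376 and 183 with IL-6 and 3.09, 107 and 184 in medium. In medium 1 of the 3 WT arrays lay above its array median, so no change is given. Gata2, the factor of blood progenitors and mast cells, read 751, 637 and 467 in STAT3-deficient cells in medium, against 286, 237 and 395 in WT cells. That change of 0.95 ± 0.25 passed (adjusted p = 0.011) but not without STAT3-deficient medium 1 (0.81, adjusted p = 0.0559) or WT medium 2 (0.79, adjusted p = 0.0571). With the B cell and myeloid marker covariate it was 1.28 and not called (adjusted p = 0.352). That covariate cannot be told apart from the genotype here.

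Of 20 tested genes reported to induce or maintain Gata3, IL-6 in WT cells gave 4 called higher and 5 called lower (3.67% and 4.65% of all genes), with a median log2 change of 0.06, against -0.02 over all genes. Jak3, the kinase of the common gamma chain receptors, read 647, 592 and 559 with IL-6 and 219, 211 and 149 in medium. Its change in WT cells was 1.50 ± 0.22 (adjusted p = 0.000115). Il4ra, the IL-4 receptor chain, rose with IL-6 by 0.72 ± 0.09 (adjusted p = 1.59e-05), with 3848, 3401 and 3621 with IL-6 and 2412, 2019 and 2140.3 in medium. Jak1, the partner kinase, fell by 0.72 ± 0.09 on the log2 scale (adjusted p = 2.24e-05), and Il7r, the IL-7 receptor of naive T cells, fell by 0.65 ± 0.09 (adjusted p = 7.89e-05). Kinases and receptors of the IL-4 pathway thus include members called in each direction.

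Stat6, which carries the IL-4 signal to Gata3, had a log2 change of -0.31 ± 0.10 with IL-6 in WT cells that missed the threshold (adjusted p = 0.062), with 4501, 4791 and 4441 with IL-6 and 6097, 5414 and 5590 in medium. It passed under 10 alternatives, with adjusted p-values from 0.0149 to 0.484 over all of them. Bcl11b, a T lineage factor, had a change of -0.30 ± 0.12 (adjusted p = 0.166), which passed with the mean of probe sets (-0.39, adjusted p = 0.0263) and with a replicate block within genotype (adjusted p = 0.00368). Notch1, a receptor whose signal acts on Gata3, rose with IL-27 in both genotypes, by 1.24 ± 0.15 in STAT3-deficient cells (adjusted p = 1.33e-05) and by 0.84 ± 0.15 in WT cells (adjusted p = 0.00131). With median centring the value with IL-27 in WT cells was 0.80 (adjusted p = 0.0541). With IL-6, Notch1 had a change of 0.35 ± 0.15 in STAT3-deficient cells (adjusted p = 0.516) and of 0.59 ± 0.15 in WT cells (adjusted p = 0.0143). In STAT3-deficient cells with IL-6, none of the 20 was called at an adjusted p under 0.05, where 1.85% of all genes were called. Their median change there was -0.11. Il4 lay above the array median on 0 arrays.

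Of the Th2 program and the reported GATA3 targets, 24 of 26 genes had a single-symbol probe set and 14 were tested. The cytokine genes Il4, Il5, Il13 and Il9 and the Th2 receptor genes Ccr3, Ccr4 and Ptgdr2 lay above the array median on 0 arrays. Of the 14, WT cells with IL-6 had 4 called higher and 1 called lower, beside 3.67% and 4.65% of all genes. Ecm1, a secreted protein that Th2 cells use to leave lymph nodes, rose in STAT3-deficient cells by 1.38 ± 0.18 with IL-27 (adjusted p = 3.04e-05) and by 1.02 ± 0.18 with IL-6 (adjusted p = 0.00172). The call with IL-6 was lost when only the arrays compared were fitted (adjusted p = 0.0834). In WT cells it rose by 1.74 ± 0.18 with IL-27 (adjusted p = 1.87e-06) and by 1.78 ± 0.18 with IL-6 (adjusted p = 1.05e-06).

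Junb, a factor that binds the Il4 promoter, read 4975, 6030 and 5586 in WT cells with IL-6 and 2099, 2149 and 1940 in medium. Its change was 0.16 ± 0.13 in STAT3-deficient cells (adjusted p = 0.851) and 1.41 ± 0.13 in WT cells (adjusted p = 4.22e-07). Crlf2, the receptor chain for TSLP, rose by 0.70 ± 0.15 in STAT3-deficient cells (adjusted p = 0.0143) and by 0.93 ± 0.15 in WT cells (adjusted p = 0.000299). The call in STAT3-deficient cells was lost with only the arrays compared (adjusted p = 0.228) and without medium array 1 (0.47, adjusted p = 0.0725), IL-6 array 1 (0.67, adjusted p = 0.0657) or IL-6 array 2 (0.69, adjusted p = 0.052). Epas1, a hypoxia-inducible factor, was the 1 member called lower, by 1.88 ± 0.20 in WT cells (adjusted p = 1.8e-06). It read 457, 395 and 471 with IL-6, against 2009, 1719 and 1447 in medium. In STAT3-deficient cells its change was -0.30 ± 0.20 (adjusted p = 0.798). Maf, which drives Il4 in Th2 cells, had a change of 0.07 ± 0.30 in WT cells (adjusted p = 0.94).

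Among 14 tested factors that oppose GATA3 or direct other lineages, 4 passed the test as higher and 1 as lower in WT cells given IL-6 (3.67% and 4.65% of all genes). Bcl6, the factor of follicular helper cells and a repressor of Th2 genes, read 2125, 2096 and 2600.2 with IL-6 and 664, 617 and 614 in medium. Its change was 0.15 ± 0.16 in STAT3-deficient cells (adjusted p = 0.893) and 1.79 ± 0.16 in WT cells (adjusted p = 2.65e-07). Batf, an AP-1 family factor needed for Th17 and follicular helper cells, had a change of -0.09 ± 0.14 in STAT3-deficient cells (adjusted p = 0.941) and of 1.72 ± 0.14 in WT cells (adjusted p = 7.02e-08). Runx3, which represses Il4 and binds GATA3, rose by 1.36 ± 0.21 in WT cells (adjusted p = 0.000196), whereas Runx1 had a change of -0.34 ± 0.14 (adjusted p = 0.217). Sox4, which binds GATA3 and restrains Th2 cells, fell by 1.39 ± 0.31 on the log2 scale (adjusted p = 0.00493).

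Tbx21 is the gene of the Th1 factor T-bet. With IL-27 it read 511, 763 and 1009 in STAT3-deficient cells and 394, 308 and 352 in WT cells. In medium it read 65.9, 69.6 and 72.4 in STAT3-deficient cells and 67.7, 82.6 and 38.8 in WT cells. With IL-6 it read 208, 226 and 438 in STAT3-deficient cells and 105, 131 and 83.9 in WT cells. Tbx21 lay above the array median on 9 arrays, those with IL-27 of both genotypes and those with IL-6 of STAT3-deficient cells, and so was tested through those groups alone. Its changes are therefore given as signals, with no test.

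In WT cells given IL-6, 12 of 20 T cell identity genes tested were lower, 0 were higher and 8 were not called, with a median log2 change of -0.65, against -0.02 over all genes, of which 4.65% were called lower. Cd5, a receptor that tunes T cell receptor signals, read 1586, 2054 and 1990 with IL-6 and 5505, 5742 and 6380 in medium, a change of -1.64 ± 0.11 (adjusted p = 4.34e-09). Thy1, the pan-T surface protein, fell by 1.53 ± 0.19 on the log2 scale (adjusted p = 1.85e-05), Cd6 by 1.37 ± 0.13 (adjusted p = 6.76e-07) and the costimulatory receptor Cd28 by 1.07 ± 0.11 (adjusted p = 1.94e-06). Cd4 read 1181, 1019.7 and 1453 with IL-6 and 2397, 2755 and 1853 in medium, a change of -0.92 ± 0.18 (adjusted p = 0.00153). Zbtb7b, the gene of ThPOK, which GATA3 activates in CD4 lineage commitment, had a change of -0.68 ± 0.33 (adjusted p = 0.291), which passed when only the arrays compared were fitted (adjusted p = 0.0187).

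In STAT3-deficient cells given IL-6, 2 of these 20 genes were lower and 0 higher, where 0.159% of all genes were called lower. With 1.83% of all genes called that way, the change with IL-6 differed between genotypes for 6 of the 20, each with a positive difference, STAT3-deficient minus WT. Cd6 read 2362, 1783 and 1853 with IL-6 and 2310.2, 2532 and 2683 in medium in STAT3-deficient cells, a change of -0.33 ± 0.13 (adjusted p = 0.453). For Cd4 the change was -0.04 ± 0.18 in STAT3-deficient cells, and its difference from the WT change was 0.88 ± 0.25, with an adjusted p of 0.0694. It passed under 10 alternatives, among them the mean of probe sets (1.18, adjusted p = 0.000862), with adjusted p-values up to 0.187 over all of them. With IL-27, 5 of the 20 were lower and 1 higher in STAT3-deficient cells, where 1.7% of all genes were called lower and 3.27% higher. In WT cells with IL-27, 7 were lower and 0 higher, where 2% of all genes were called lower.

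**Figure D4:**
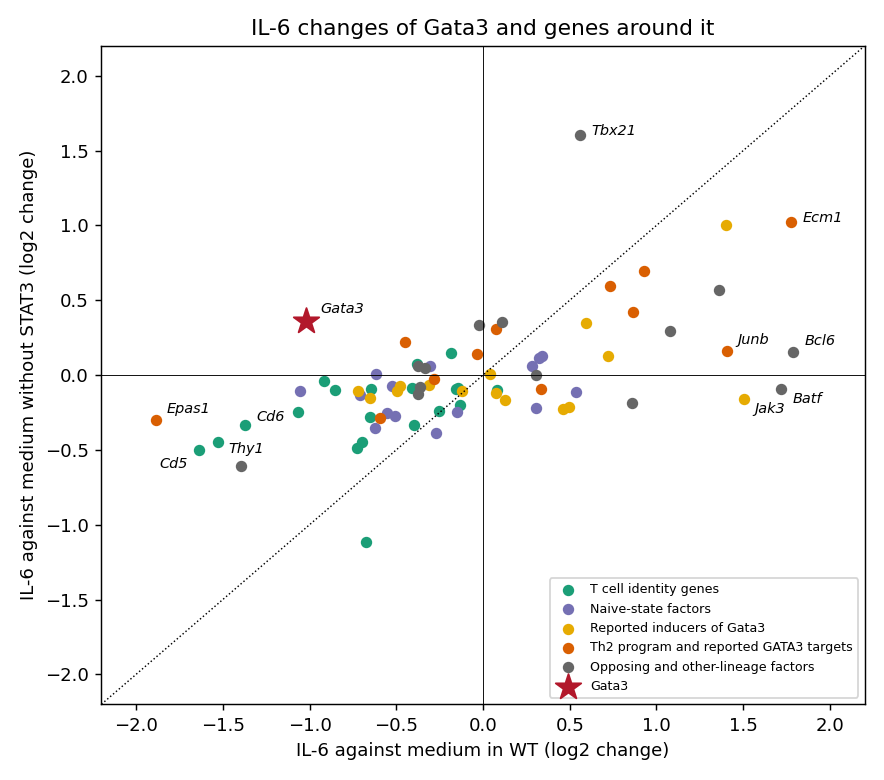
Log2 change with IL-6 against medium in STAT3-deficient cells (vertical axis) and in WT cells (horizontal axis) for Gata3 and the genes of 5 lists. Each point is a gene coloured by list, with a gene of several lists shown in 1 colour, and the dotted line marks equal changes. Gata3 lies at 0.36 in STAT3-deficient cells and -1.02 in WT cells.

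Factors of the naive state moved in both directions with IL-6 in WT cells: of 15 tested, 6 were lower and 3 higher (4.65% and 3.67% of all genes), with a median log2 change of -0.30. Klf2, which keeps the homing receptors of naive T cells on, read 10916, 10936 and 11130.4 with IL-6 and 18110.0, 16562 and 16029 in medium. Its change was 0.01 ± 0.07 in STAT3-deficient cells (adjusted p = 0.994) and -0.62 ± 0.07 in WT cells (adjusted p = 6.45e-06). Lef1, a partner of TCF-1 in naive T cells, fell by 0.71 ± 0.11 on the log2 scale in WT cells (adjusted p = 0.000198), and Klf3, a relative of Klf2, by 0.55 ± 0.12 (adjusted p = 0.00433). In STAT3-deficient cells with IL-6 none of the 15 was called, where 1.85% of all genes were, and the median change was -0.11.

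Response genes of IL-6 and IL-27 were listed with earlier results of these data known, so their values are a description. Of 16 tested, 9 were higher with IL-6 in STAT3-deficient cells and 14 in WT cells, and 0 were lower in either. With IL-6, 1.69% of all genes were called higher in STAT3-deficient cells and 3.67% in WT cells. Socs3, the feedback inhibitor of IL-6 signalling, read 1014, 1138 and 1336 with IL-27, 585, 944 and 669 with IL-6 and 421, 393 and 411 in medium in STAT3-deficient cells. It rose there by 1.43 ± 0.15 with IL-27 (adjusted p = 2.32e-06) and by 0.77 ± 0.15 with IL-6 (adjusted p = 0.00598), the call with IL-6 being lost with only the arrays compared (adjusted p = 0.16). It read 10006, 11169 and 9393 with IL-6 and 536, 472 and 587 in medium in WT cells, a change of 4.18 ± 0.15 (adjusted p = 1.24e-12). Bcl3, a STAT3-responsive cofactor of NF-kappaB, had a change with IL-6 of 0.08 ± 0.15 in STAT3-deficient cells (adjusted p = 0.955) and of 2.84 ± 0.15 in WT cells (adjusted p = 2.83e-10).

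The genes whose signal was most like that of Gata3 were ranked by Pearson's r over the 18 arrays among 11970 other genes. They share libraries, cytokines and genotype with Gata3, so the values are a description. The 6 highest were Pstpip1 (r = 0.90), a cytoskeletal adaptor that binds CD2; Sh2d2a (r = 0.86), the T cell adaptor TSAd; Fam3c (r = 0.81), a secreted protein; Trim25 (r = 0.80), a ubiquitin ligase of the RIG-I pathway; Ehd3 (r = 0.79), a factor of endosome transport; and Tdrd3 (r = 0.79), a Tudor domain protein. The 3 most opposite were Ankrd46 (r = -0.80), Zcchc7 (r = -0.80) and Mcm4 (r = -0.78), a subunit of the replicative helicase. Pstpip1 read 675, 774 and 695 in WT cells with IL-6 and 894, 1065 and 1152 in WT cells in medium. Mcm4 read 5387, 5227 and 5428 in WT cells with IL-6 and 2130.0, 2241 and 2303 in WT cells in medium, a level that no other group reached.

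Within groups, after removal of the group means, r was 0.79 for Pstpip1 and 0.73 for Sh2d2a, against -0.11 for Ankrd46. The STAT3-deficient medium array numbered 3, where Gata3 read 749, also had the highest Sh2d2a signal of its group, 3883, against 1998 and 2310 on the other two. Over 26 other settings r stayed between 0.88 and 0.92 for Pstpip1 and between 0.83 and 0.90 for Sh2d2a. It ranged from 0.06 to 0.83 for Tdrd3, from -0.85 to 0.11 for Zcchc7, from -0.92 to -0.39 for Ankrd46 and from -0.86 to -0.37 for Mcm4.

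**Figure D5:**
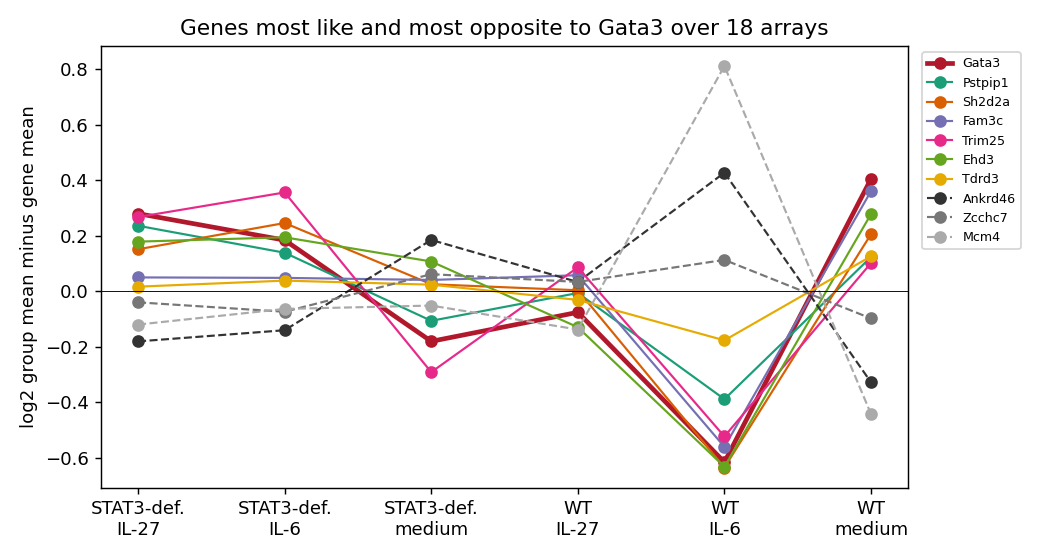
Mean log2 signal of each group minus the gene's mean over the groups (vertical axis) for Gata3, the 6 genes most like it (solid lines) and the 3 most opposite (dashed lines), by group (horizontal axis). Gata3 and the 6 like genes are lowest in WT cells with IL-6, where Mcm4 and Ankrd46 are highest.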

How the data were processed

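Total RNA of 18 samples was hybridised to Affymetrix Mouse Genome arrays, 1 array a sample. The deposited values are the authors' linear signal intensities. The submitters' processing notes name GCOS, with no version or settings. From the values, each array had a mean of 500 over the probe sets left once 2% were trimmed from each end. Intensities were taken as log2 of the signal plus 32 and quantile-normalised. Of 45101 probe sets, 34945 had 1 gene symbol, 932 several and 9160 none in the platform annotation, and 64 were controls. Probe sets above the median of their own array on at least 3 arrays were kept (26860), with the probe set of highest mean for each gene (11971 genes). Normalised signals are 2 to the normalised log2 value, minus 32.

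Group means were fitted over all 18 arrays with limma 3.58.1 in R 4.3.3 (lmFit, eBayes with a variance trend, 12 residual degrees of freedom), with two-sided tests and Benjamini-Hochberg adjustment over all genes in each comparison. Values after ± are standard errors unless given as SD. The fit was tested on simulated data. The number of arrays limits the precision, and p-values measure the spread between samples that the submitters call biological replicates.

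Members and gene lists were chosen with earlier results of these data known. The genes named are Gata3, the 6 genes most like and the 3 most opposite to it, a fixed set of GATA, T cell and cytokine genes, and up to 4 called members of each list with the largest change in a comparison. Some of these are left out for brevity. Replicate numbers are not explained in the labels. Same-numbered arrays had correlated deviations over 0.1 in 11 of 18 pairs within a genotype (-0.15 to 0.36), so the numbers were not taken as pairs. Promoter sequence and coordinates are from RefSeq on GRCm38.p6. Alternatives covered scaling, the added constant, filters, probe set choice, variance model, array weights, arrays fitted, a replicate block and leaving out each array.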

Additional observations from a re-analysis of the deposited data

Results flagged for a closer look

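By the limma interaction test, the change with IL-6 differed between STAT3-deficient and WT cells for Gata3 and for 9 other genes picked by name. Over all genes, 3.08% were called. The 9 are not a count over all genes described above, and Socs3 and Bcl3 were not among those picked. Of the IL-6 and IL-27 response genes tested, 3 were called with a positive and 6 with a negative difference. For Gata3 the difference, STAT3-deficient minus WT, was 1.39 on the log2 scale (adjusted p = 0.00472). Among genes that fell with IL-6 in WT cells it was 1.59 for Epas1 (adjusted p = 0.00233), 1.14 for Cd5 (adjusted p = 0.000159), 1.04 for Cd6 (adjusted p = 0.00266), 0.82 for Cd28 (adjusted p = 0.00502) and 0.62 for Klf2 (adjusted p = 0.00119). Among genes that rose with IL-6 in WT cells it was -1.81 for Batf (adjusted p = 1.36e-05), -1.66 for Jak3 (adjusted p = 0.0043), -1.64 for Bcl6 (adjusted p = 0.000202) and -1.25 for Junb (adjusted p = 0.000418). Groups of 3 arrays were not searched for outlying samples.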

How the results depend on the processing

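For Gata3, the fall with IL-6 in WT cells was called in every setting. It ran from -1.09 to -0.96 leaving out each array and from -1.15 to -0.91 under 14 other settings. The difference of the IL-6 effect (1.24 to 1.65 and 1.24 to 1.63) was also called in every setting. The excess over WT cells with IL-6 was called in every setting run, at 0.68 to 0.99 and, under 13 other settings, 0.60 to 2.13. Those 13 include the marker covariate, which cannot be told apart from the genotype in this comparison. IL-27 against IL-6 in WT cells passed with array weights (0.56), with only the arrays compared (0.54) and with the marker covariate (0.76). In STAT3-deficient cells, IL-27 against medium ran from 0.30 to 0.72 leaving out each array, and IL-27 against IL-6 from -0.09 to 0.22, turning to -0.0891 without IL-6 array 2 and -0.00197 without IL-27 array 3. STAT3-deficient against WT in medium ran from -0.84 to -0.43 and missed the threshold with only the arrays compared (-0.59, adjusted p = 0.0652). It turned to 0.62 with the marker covariate, which cannot be told apart from the genotype. In that comparison the median of all genes was 0.03, 0.14 with deposited scaling and -0.40 with median centring, and Gata3 minus that median was -0.61, -0.63 and -0.63. The replicate block left each Gata3 call and value where it was run (-1.02 for IL-6 in WT cells, adjusted p = 0.000603). The block within genotype was not run for the genotype comparisons.

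Numbers of genes called moved by over 1.5 times as follows. Median centring gave 347 for IL-27 in WT cells (564 as reported), 13 for IL-27 against IL-6 in STAT3-deficient cells (47), 205 for that in WT cells (376), and 5910 for the genotypes in medium (3190). Array weights gave 931 for IL-27 in WT cells and 13 for the IL-27 effect (2). Only the arrays compared gave 127 for IL-6 (221), 349 for IL-27 (596) and 17 for IL-27 against IL-6 in STAT3-deficient cells, and 1119 for the genotypes with IL-27 (1945). No variance trend gave 28 for IL-27 against IL-6 in STAT3-deficient cells. The replicate block within genotype gave 74 for IL-27 against IL-6 in STAT3-deficient cells, 588 in WT cells and 635 for the IL-6 effect (369). The stricter filter and the mean of probe sets each gave 1 for the IL-27 effect, and leaving out STAT3-deficient arrays numbered 3 gave 6. The covariate gave 392, 368 and 263 for the genotypes in medium, with IL-6 (2826) and with IL-27. Leaving out each array gave 24 to 49 for IL-27 against IL-6 in STAT3-deficient cells, 2 to 4 for the IL-27 effect, 2028 to 3437 for the genotypes in medium and 1201 to 2112 with IL-27. With median centring, the share of calls that were higher was 11.5% for the genotypes in medium (51.6% as reported), 17.99% with IL-6 (54.0%), 16.5% with IL-27 (59.2%), 98.0% for IL-27 in STAT3-deficient cells (65.8%) and 77.5% for the IL-6 effect (59.3%). Of 63 tests of other named genes, 53 kept their call in every setting, and those called also kept their direction. A turn of sign between values that were not called was not counted. For Jak3 with IL-6 in STAT3-deficient cells, for example, the values ran from -0.35 to 0.23. The cause of these shifts was not tested.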
